A study of Mus musculus with 233 samples.

Results

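The comparison described here set striatum that received a zinc finger repressor of mutant Huntingtin against striatum that received its inactive control, both in heterozygous zQ175DN knock-in mice injected at 6 months of age and collected 4 months later, at 10 months. Libraries were chosen by their labels for genotype, virus and ages. They comprised 5 repressor libraries (called nZFP, 3 from males and 2 from females) and 8 control libraries (called DBD, 4 of each sex), 13 of the 233 libraries of the series. All entries of the gene table other than the vector entries were used. The zQ175 line (B6.129S1-Htttm1.1Mfc/190ChdiJ) carries human HTT exon 1 with a long CAG tract in place of the mouse exon on 1 allele, and the other allele is unmodified. nZFP is an AAV2/2+1 virus with the repressor ZFP30645 behind the human synapsin promoter, so that expression is meant for neurons and not for the glia and vessels that share the tissue. DBD is the same virus and promoter with the repressor protein lacking its DNA-binding domain, and a further control virus, Estop, carries a stuffer that encodes no protein. Each hemisphere received 1 virus, and wild-type (WT) littermates received the same viruses at the same ages.

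Huntington's disease is caused by an expanded CAG repeat in HTT, and the medium spiny neurons of the striatum are the cells it affects most. These neurons carry dopamine receptors and signal through cyclic AMP, and in knock-in mice their identity genes lose expression with age while developmental transcription factors that are normally silent in them gain it. A zinc finger repressor joins a DNA-binding array, here aimed at the expanded CAG tract, to a repression domain that silences nearby transcription.

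The 13 libraries held 30684924 to 47894359 gene counts each and came from 11 mice, of which 2 gave both an nZFP and a DBD library. A sixth nZFP library, R2, was left out. Its median Spearman correlation with the other libraries of the paradigm was 0.945, against 0.985 or more for the 44 libraries used, and long genes were low against short ones in it (a length index, the log2 deviation of the longest genes minus that of the shortest, of -1.43 against -0.12 to 0.24 in the 13). A WT DBD library, also numbered R2, stood apart in the same way and was left out of the fit. The deposited entry for the repressor transcript read 516 to 609 CPM (counts per 1000000 gene counts) in the 5 nZFP libraries and 4.98 to 28.2 CPM in the 8 DBD libraries. A separate entry for the DBD transcript was 0 in all libraries of every group, so the DBD label has no entry of its own to check it. The woodchuck element that both vectors carry (WPRE) read 784 to 1027 CPM in nZFP and 889 to 2107 CPM in DBD libraries, and the part of this difference in the results was not tested.

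A total of 213 of 15913 genes tested (1.34%) differed between nZFP and DBD libraries in zQ175 striatum at an adjusted p under 0.05 in edgeR's quasi-likelihood test with Benjamini-Hochberg adjustment, which is the test behind every adjusted p below. Of these, 138 were higher with the repressor (0.867% of the genes tested) and 75 were lower (0.471%). The higher genes moved by small amounts, with a median log2 fold change of 0.30, and all 138 averaged at least 1 CPM. The lower genes moved further, with a median of -0.55, and 65 of the 75 averaged at least 1 CPM. The nZFP and DBD libraries did not overlap at all for 85 of the higher and 54 of the lower genes, against 1.61% of all genes tested. With mouse as a block, 126 genes were called, and 103 of them were among the 213. Only 2 mice in that fit gave both an nZFP and a DBD library. Another 3 nZFP and 4 DBD libraries enter it through an Estop library of the same mouse. It is thus only partly a paired test. With Estop as the control, 223 were called (1.4%; 112 higher, 0.704%, and 111 lower, 0.698%) and 108 were shared. The DBD libraries themselves differed from Estop libraries in 22 higher and 56 lower genes. Some results below depend on which control is used, and not all of these are named. In bulk tissue, fewer cells of a type and less RNA per cell cannot be told apart.

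Htt, the gene the repressor is aimed at, is counted from both alleles in this table, at chr5:34761740-34912534 (GRCm38). Its level was 81.4, 75.7, 72.2, 75.3 and 87.8 CPM in nZFP R1, R3, R4, R6 and R8, and 79.1 to 115 CPM with a median of 93.7 in DBD. In 3 nZFP libraries the level was below every DBD library and in the others it overlapped them, with a log2 fold change of -0.28 (SE 0.12, adjusted p = 0.428). With the balance of long against short genes as a covariate, the value for Htt was -0.34 and passed the test (adjusted p = 2.4e-05). In WT the difference was 0.09. A separate entry, Htt_HD, whose sequence is not described in these sources, holds only a few reads per library. It had 2.07, 2.08, 0, 1.03 and 2.06 expected counts in the same 5 nZFP libraries and 2.11 to 8.51 in DBD, so that the highest nZFP count lay just under the lowest DBD count. In CPM the 2 groups overlapped, 3 nZFP libraries lying above the lowest DBD library. WT libraries, without a knock-in allele, had 0 to 2.04 expected counts in this entry, so that the nZFP counts are near its floor. The mean was 0.0341 CPM in nZFP and 0.106 CPM in DBD, or 32.2% of the control (exact two-sided permutation test, p = 0.0171, 5 against 8 libraries). In the same exact test the call was lost without nZFP R4 (40.3%, p = 0.0545) or R6 (34.0%, p = 0.0505), and against Estop, where the level was 48.8% of the control (p = 0.169).

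Of 30 shared identity genes of medium spiny neurons, 14 rose with the repressor and 1, Arpp21, fell, and the median log2 fold change was 0.24 against -0.01 over all genes tested. A positive difference was seen in 29 of the 30. Over all genes tested, 0.867% were called higher and 0.471% lower, and these shares also stand behind the counts of the lists below. The summed level of the 30 genes was 19068 to 20435 CPM in nZFP and 16152 to 18721 CPM in DBD, with no overlap. Fewer identity genes passed with mouse as a block (8 higher, median 0.25), where 79 of all 15913 genes were higher. Against Estop 4 were higher (median 0.16), where 0.704% of all genes were. With R2 included 10 were higher, where 172 of 15837 genes were. In WT, 1 identity gene was higher, where 0.478% of all genes were, and the median was 0.01.

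Scn4b, a sodium channel beta subunit highly expressed in medium spiny neurons, changed most clearly. It read 812, 693, 868, 714 and 819 CPM in nZFP R1, R3, R4, R6 and R8, and 435 to 534 CPM with a median of 517 in DBD. All nZFP libraries were above all DBD libraries, and the log2 fold change was 0.67 (SE 0.05, adjusted p = 1.41e-13). The Estop level of Scn4b was between them, with a median of 629 CPM, and against that control the difference was 0.34. Rgs9, which turns off G protein signals downstream of dopamine receptors, read 365, 332, 362, 360 and 350 CPM against 252 to 330 (median 282) in DBD, a log2 fold change of 0.31 (SE 0.05, adjusted p = 0.000154). Hpca, the neuronal calcium sensor hippocalcin, read 1853, 1720, 1960, 1836 and 1896 CPM against 1381 to 1654 (median 1483), a log2 fold change of 0.31 (SE 0.05, adjusted p = 0.000315). The groups did not overlap for either gene, yet against Estop both fell short of the threshold (0.14, adjusted p = 0.206 for Rgs9 and 0.18, adjusted p = 0.0943 for Hpca). Further identity genes that rose included the transcription factors Bcl11b (0.27) and Foxp1 (0.21) and the adenylyl cyclase Adcy5 (0.24). Pde10a, a phosphodiesterase enriched in these neurons, had a difference of 0.33 that missed the threshold (adjusted p = 0.0548).

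The 2 classes of medium spiny neuron were represented by a few called genes each. Adora2a, the adenosine receptor of the indirect pathway, read 392, 348, 389, 369 and 344 CPM in the nZFP libraries and 253 to 305 CPM with a median of 272 in DBD. The groups did not overlap, and the log2 fold change was 0.42 (SE 0.06, adjusted p = 5.2e-06). Upb1 read 1.88, 1.61, 1.38, 1.78 and 1.23 CPM against 0.574 to 1.09 (median 0.815), a log2 fold change of 0.96 (SE 0.15, adjusted p = 5.37e-05) with every nZFP library higher. These were the 2 called among 8 indirect pathway genes tested, whose median was 0.20. The enkephalin precursor Penk was at 707, 729, 787, 685 and 689 CPM against 513 to 629, also without overlap, but its log2 fold change of 0.29 did not pass (adjusted p = 0.0718). Drd1, the dopamine receptor of the direct pathway, read 187, 193, 194, 179 and 194 CPM against 146 to 173 (median 163). Its log2 fold change was 0.25 (SE 0.04, adjusted p = 0.000142), and it was the only one called of 10 direct pathway genes (median 0.12). The Drd1 call was lost with mouse as a block (0.19, adjusted p = 0.148) and with R2, where Drd1 was at 136 CPM, included (0.18, adjusted p = 0.0786).

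**Figure D1:**
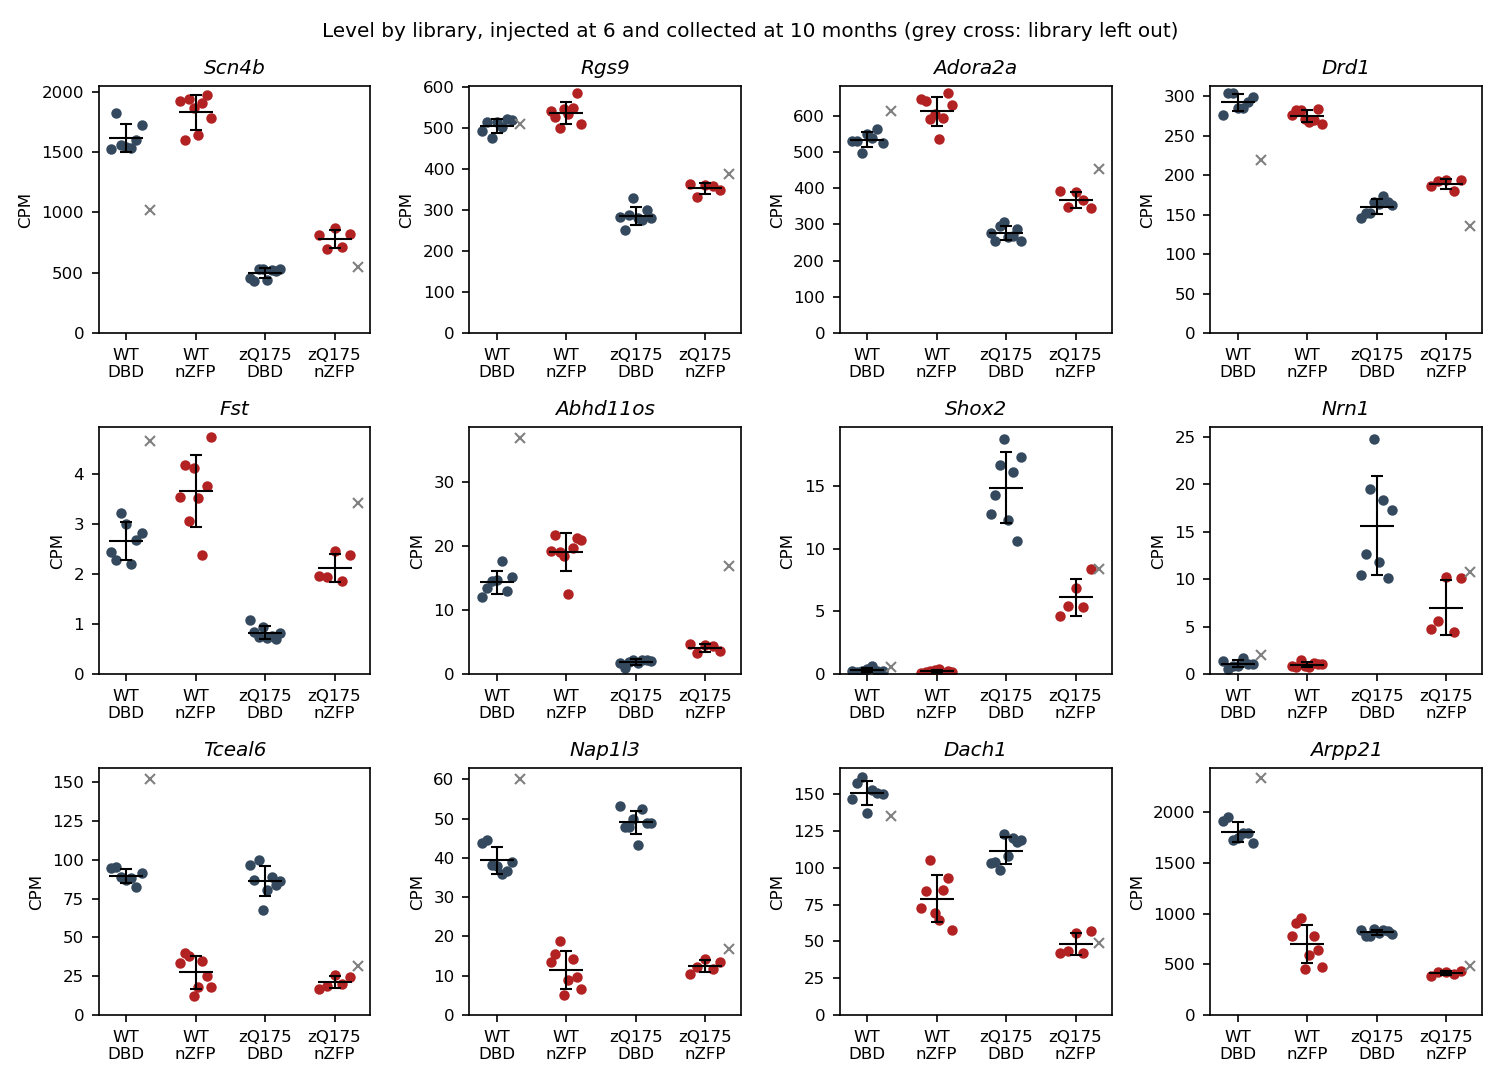
Level in CPM (linear axes from 0) of 12 genes in each library of WT and zQ175 striatum given DBD or nZFP. Points are libraries, bars the mean ± SD of the libraries used, and grey crosses the libraries left out. In zQ175 the nZFP points of Scn4b, Adora2a and Drd1 lie above the DBD points and below the WT points, those of Shox2 and Nrn1 lie mostly below the DBD points and above the WT points, and Tceal6 and Nap1l3 are low under nZFP in both genotypes.

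Other neuronal groups showed less. Of 20 potassium channel genes, 4 rose and none fell (median 0.13). They were Kcnip2 (0.26), an accessory subunit of A-type channels, Kcnd2 (0.22), which encodes a pore of these channels, Kcnk2 (0.32), a leak channel, and Kcnj2 (0.42), an inward rectifier. None of the 4 passed against Estop (adjusted p = 0.065 to 0.462), and with mouse as a block 1 potassium channel gene passed. Necab2, a calcium-binding protein that partners with the adenosine receptor, was at 246, 244, 258, 248 and 243 CPM against 154 to 209 (median 177), with no overlap. Its log2 fold change was 0.47 (adjusted p = 8.54e-06), and the WT value of 0.49 (adjusted p = 9.82e-07) was of the same size. Ppp3ca, the catalytic subunit of calcineurin, was the only one called of 19 cyclic nucleotide and phosphatase signalling genes (0.25, adjusted p = 0.00177), and it did not pass against Estop (0.12, adjusted p = 0.324). Narrow calls were those of Camk2b, the other gene called of 19 calcium-binding genes (0.13, adjusted p = 0.0495), and Grm5, the only one called of 22 genes of glutamate synapses (0.28, adjusted p = 0.045). Both lost the call when any of several libraries was left out, for example to adjusted p = 0.29 for Camk2b without nZFP R4 and 0.145 for Grm5 without nZFP R8. Against Estop, 1 of the 19 calcium-binding genes was called higher, where 0.704% of all genes were. Among 17 secreted neuronal factors, Fst, Nptx1 (0.42) and Igfbp4 (0.36) rose and Nrn1 fell. Nptx1 lost its call with R2 included (0.28, adjusted p = 0.177), and Igfbp4 against Estop (0.16, adjusted p = 0.465). With Estop as the control, 1 of the 17 factors was called higher and 1 lower, where 0.704% and 0.698% of all genes were.

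**Figure D2:**
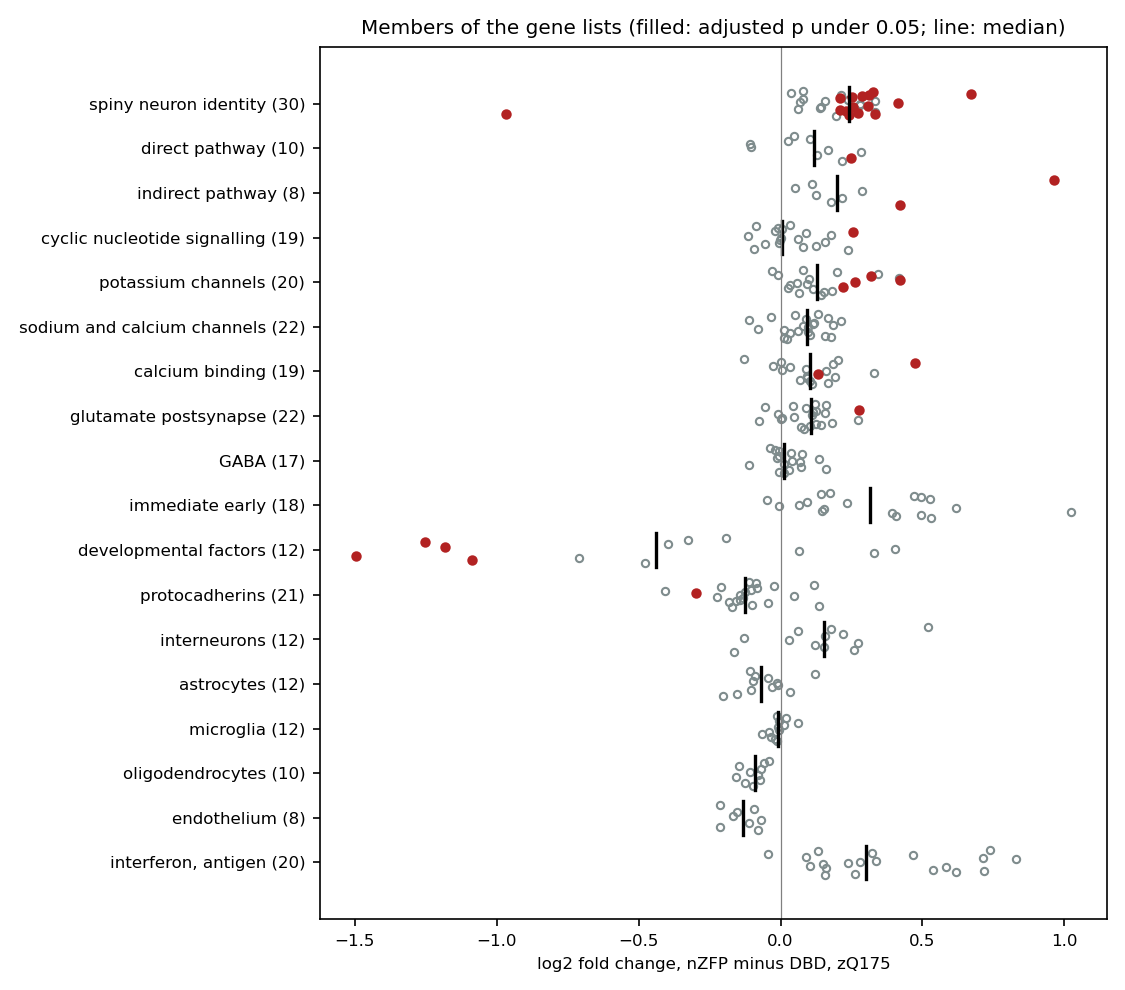
Log2 fold change, nZFP minus DBD in zQ175, of each member of 18 gene lists. Filled points have an adjusted p under 0.05, and the short line is the median of the list. The identity genes lie to the right of 0 except Arpp21 at -0.97, and the 4 filled points of the developmental factors lie between -1.50 and -1.09.

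Several genes of low level also rose. Fst, which encodes the activin antagonist follistatin, read 1.96, 1.94, 2.45, 1.86 and 2.39 CPM in nZFP R1, R3, R4, R6 and R8 and 0.703 to 1.09 CPM with a median of 0.791 in DBD. The groups did not overlap and the log2 fold change was 1.36 (SE 0.16, adjusted p = 9.98e-08). WT libraries were at 2.2 to 3.21 CPM with DBD and 2.38 to 4.74 CPM with nZFP. Abhd11os, a noncoding RNA expressed in striatum, read 4.62, 3.26, 4.45, 4.38 and 3.57 CPM against 0.961 to 2.23 (median 1.95), a log2 fold change of 1.14 (SE 0.14, adjusted p = 4.66e-07) with no overlap. The zQ175 nZFP library left out, R2, was at 16.8 CPM for Abhd11os, above all 13. WT libraries read 12.0 to 17.6 CPM for it with DBD and 12.4 to 21.7 CPM with nZFP. Neither Fst nor Abhd11os was called in the test of the difference between genotypes given below. Ddit4l, a stress-induced inhibitor of mTOR signalling, read 10.1, 10.3, 9.89, 8.73 and 8.38 CPM against 5.68 to 7.86 (median 6.83), and Hrk, a pro-apoptotic member of the BCL2 family, read 32.1, 32, 33.7, 30.3 and 29.7 CPM against 22.2 to 27 (median 24.5). Neither gene overlapped, and the log2 fold changes were 0.45 (adjusted p = 2.68e-06) and 0.38 (adjusted p = 0.000142). Ptpn7 (0.72), a tyrosine phosphatase, and Sec14l3 (0.74), a lipid transfer protein, rose too, and Sec14l3 libraries overlapped and lost the call with mouse as a block (0.53, adjusted p = 0.193). Rec8 (0.73), Impg1 (0.75), Marveld3 (0.77) and Chrnb4 (0.72) were called higher too, and each lost its call with mouse as a block (adjusted p = 0.0638 to 0.167).

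Some raised genes were called higher in WT too, or rested on 1 library or on the choice of control. Rian, an imprinted noncoding RNA, read 408, 451, 398, 408 and 401 CPM against 231 to 266 (median 251) in DBD, a log2 fold change of 0.73 (SE 0.08, adjusted p = 2.23e-09). P2ry1, a purinergic receptor, read 21.9, 24.1, 16.2, 21.1 and 19.8 CPM against 10.2 to 15.3 (median 11.6), a log2 fold change of 0.78 (adjusted p = 0.00315). Neither gene overlapped, and both also rose in WT (0.44, adjusted p = 6.85e-05 for Rian and 0.63, adjusted p = 0.0225 for P2ry1). With mouse as a block, P2ry1 did not pass (0.66, adjusted p = 0.113). Igkv6-15, an immunoglobulin light chain segment, was at 26.4 CPM in nZFP R4 and at 0 to 0.186 CPM in the other 4, so that its log2 fold change of 5.57 (adjusted p = 0.0213) was -0.18 without that library (adjusted p = 0.995). Ddn, a postsynaptic protein of dendrites, rose against DBD (0.44, adjusted p = 4.7e-05) and not against Estop (-0.0061, adjusted p = 0.983).

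The 75 lower genes were divided by their call in WT, with 34 also called lower there and 41 not. The 34 called in both are 45.3% of the 75 lower genes in zQ175 and 42.0% of the 81 lower in WT (0.509% of the genes tested). Most of the 41 also had a negative value in WT (34 negative and 7 positive, median -0.09). Among the higher genes, 14 were called higher in WT too, 10.1% of 138 and 18.4% of 76 (0.478% of the genes tested). Of the other 124 higher genes, 93 had a positive WT value and 31 a negative one (median 0.08). The WT calls came to 157 genes (0.987%), and no gene called in both genotypes differed in direction. WT and zQ175 libraries came from different animals and shared the estimate of the spread.

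**Figure D3:**
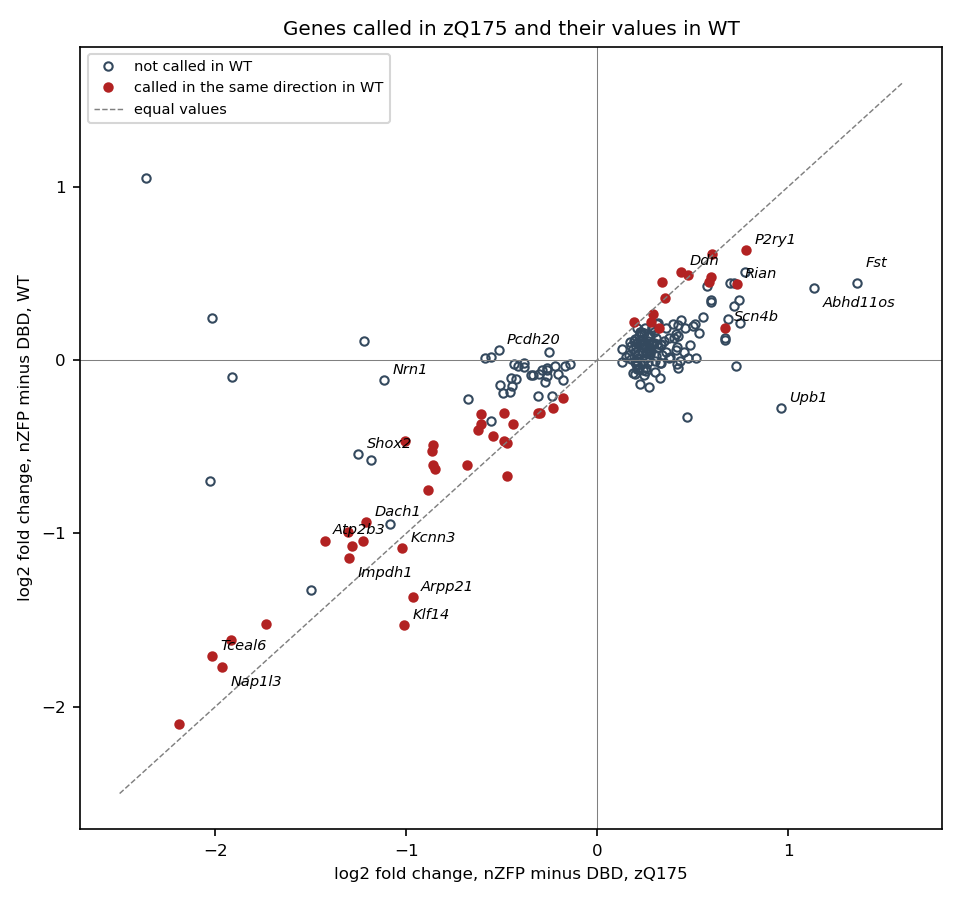
Log2 fold change, nZFP minus DBD, in WT (vertical axis) against zQ175 (horizontal axis) for the genes called in zQ175, with Igkv6-15 not drawn. Filled points are also called in the same direction in WT, and the dashed line marks equal change. Many lower genes lie near the dashed line, with 34 filled, and most higher genes lie near 0 on the WT axis, with 14 filled.

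The median log2 fold change of the 34 genes lower in both genotypes was -0.86 in zQ175 and -0.62 in WT. A list of 8 genes lowered by this repressor was chosen on these same samples and is no independent evidence of direction; all 8 were lower in both genotypes (median -1.26 and -1.02). To show what these transcripts share, all transcripts in GENCODE vM21 (GRCm38) were searched for the longest uninterrupted run of CAG or CTG units on the transcript strand, a CTG run being a CAG run on the opposite strand. Runs of at least 4 units were found in 15 of the 34 genes (44.1%), 2 of the 41 genes lower in zQ175 and not called in WT (4.88%), 8 of the 138 higher genes (5.80%) and 1177 of 15807 genes tested with a transcript (7.45%). Runs of at least 6 units were found in 29.4% of the 34 and 1.79% of all. Gm5124 and Gm26593, both among the 34, overlap on opposite strands of chrX and hold the same run of 6 units. That run is counted for both genes here and in the bins below, and the 2 genes may share reads. The longest transcript had a median of 3079 bases in the 34 genes and 3315 in all. The windows below show the run in capitals, 5′ to 3′ on the transcript strand, for the lowered genes discussed here and, last, for 1 gene not called in WT. Tceal6 (chrX:135210626-135210655, minus strand) and Impdh1 (chr6:29212236-29212265, minus strand) hold it in the 5′ UTR. Nap1l3 (chrX:122396808-122396837, minus), Dach1 (chr14:98168885-98168914, minus), Kcnn3 (chr3:89520663-89520691, plus) and Brdt (chr5:107359878-107359907, plus, exon 13) hold it in coding sequence, and Kcna6 (chr6:126740588-126740616, minus) in the 5′ UTR.
Tceal6: ctagtcCTGCTGCTGCTGCTGCTGcggata
Nap1l3: tagCAGCAGCAGCAGCAGCAGCAGCAGtag
Impdh1: ggtgcgcgtCAGCAGCAGCAGcggcggcgg
Dach1: cagtagCAGCAGCAGCAGCAGCAGtagcag
Kcnn3: gtcgCAGCAGCAGCAGCAGCAGCAGtcgc
Brdt: cagcggCAGCAGCAGCAGCAGCAGcggcag
Kcna6: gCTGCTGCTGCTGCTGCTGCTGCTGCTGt

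Tceal6, a transcription elongation factor family member on the X chromosome with a run of 6 units, read 17, 18.9, 26.1, 20 and 24.2 CPM in nZFP R1, R3, R4, R6 and R8 and 67.5 to 99.6 CPM with a median of 86.8 in DBD. It fell by 2.02 on the log2 scale (SE 0.17, adjusted p = 2.35e-11), and the WT value was -1.71. Nap1l3, a nucleosome assembly protein homologue whose run has 8 units, read 10.4, 12.2, 14.3, 11.8 and 13.5 CPM against 43.3 to 53.2 (median 48.8), a log2 fold change of -1.96 (SE 0.15, adjusted p = 2.05e-12). In WT it was -1.77. The groups were far apart for both genes, and R2 also had low levels of both (31.4 and 16.8 CPM). Impdh1, an enzyme of guanine nucleotide synthesis with a run of 4 units, read 19.9, 19.6, 25.1, 22.9 and 22.3 CPM against 50.8 to 57.7 (median 55), a log2 fold change of -1.30 (SE 0.09, adjusted p = 1.41e-13). Dach1, a transcriptional cofactor with a run of 6 units, read 41.8, 43.5, 55.6, 42.4 and 56.9 CPM against 98.4 to 123 (median 113), a log2 fold change of -1.21 (SE 0.09, adjusted p = 3.98e-13). Neither overlapped, and the WT values were -1.14 for Impdh1 and -0.93 for Dach1. Kcnn3, the small-conductance calcium-activated potassium channel SK3 with a run of 7 units, read 18.2, 15.6, 15.8, 15.8 and 17 CPM against 28.6 to 40 (median 33). Its log2 fold change was -1.02 (SE 0.18, adjusted p = 0.000375) and the WT value -1.08. Brdt, a bromodomain protein best known from testis, ranged from 3.39 to 4.43 CPM in nZFP and from 6.44 to 8.11 CPM in DBD, a log2 fold change of -0.85 against -0.63 in WT.

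A run was not shared by all strongly lowered genes. Atp2b3, a calcium pump of the plasma membrane, fell from 74.7 to 99.7 CPM (median 84.6) in DBD to 29.9, 28.4, 35.1, 29.3 and 35.9 CPM in nZFP, a log2 fold change of -1.43 (SE 0.14, adjusted p = 1.9e-09), and its longest run has 3 units. Mzt2 (-1.30), a component of microtubule nucleation complexes, Stk32c (-1.23), a kinase, and Arpp21 (-0.97) also have 3 units at most, and none of the 4 genes overlapped between groups. Arpp21, a cyclic AMP regulated phosphoprotein and the 1 identity gene that fell, read 389, 420, 420, 402 and 436 CPM against 778 to 847 (median 817; adjusted p = 3.75e-09), and its WT value was -1.37. The zQ175 DBD level of Arpp21 was itself below the WT DBD range of 1696 to 1955 CPM. Klf14, a zinc finger transcription factor, was lower than in DBD (-1.01, adjusted p = 0.0213) and higher than in Estop (1.48, adjusted p = 0.000324), since DBD libraries read 2.03 to 6.06 CPM and Estop libraries had a median of 0.582 CPM. Binned by the longest run, 0.360% of 10011 genes with 2 units were lower in zQ175, 0.516% of 4067 with 3 units, 0.454% of 661 with 4, 0.858% of 233 with 5, 4.71% of 170 with 6 or 7 and 3.54% of 113 with 8 or more. Of the 17 runs in the 75 lower genes, 13 lay in the first exon of the transcript. The share in the first exon was not counted for all genes with a run. The 17 runs lay at a median of 333 bases from the transcript start, against 923 for all 1177 genes with a run. In RefSeq promoter windows (GRCm38.p6, 250 bases before to 50 after the start), such a run was present in 3 of 49 lower genes with an entry (6.12%) and in 0.418% of 11951 genes. For Tceal6 it is the part of the 5′ UTR run shown above that falls inside the window. These matches are descriptions of the sequence and do not mark binding sites.

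**Figure D4:**
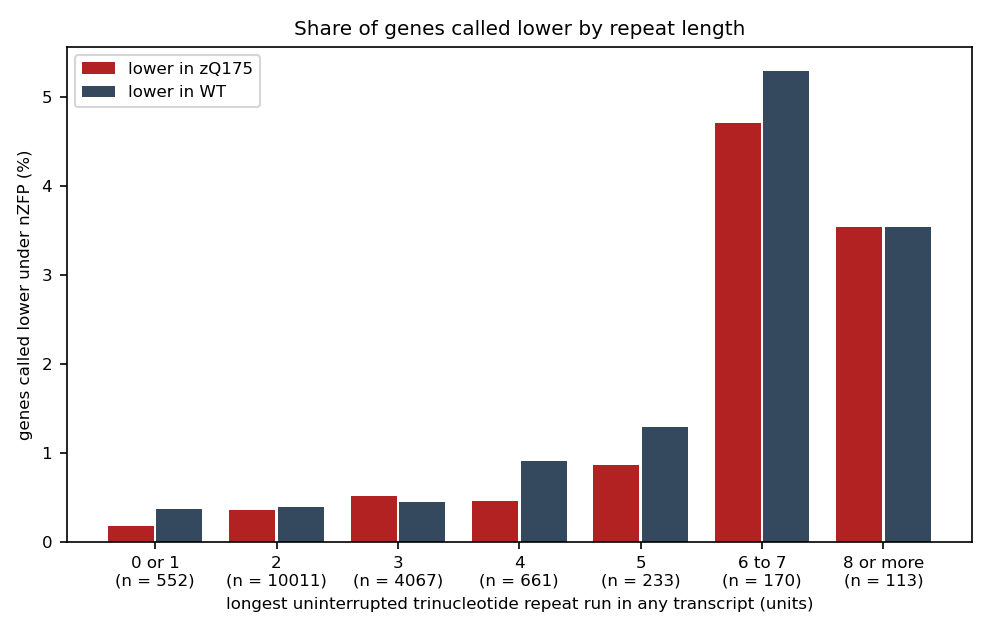
Percent of genes called lower with the repressor, by the longest uninterrupted run of CAG or CTG units in any of their transcripts, in zQ175 and in WT striatum. No other trinucleotide was searched. The share is 0.360% in zQ175 and 0.390% in WT at 2 units and 4.71% and 5.29% at 6 or 7 units, where the counts behind it are 8 and 9 genes. Gm5124 and Gm26593, which hold the same run on opposite strands, are both in these counts.

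The 41 genes lower in zQ175 and not called in WT included developmental transcription factors. Pcdh20 was the only one of the 41 that passed the test of the difference between genotypes. Of 24 developmental factors listed, 12 were expressed enough for a test, 4 fell and none rose (median -0.44), and the summary covers only those 12. The summed level of all 24 overlapped between groups, at 59.1 to 73.0 CPM in nZFP and 55.3 to 87.7 CPM in DBD. Shox2, a homeobox gene of limb and heart development, read 4.62, 5.41, 6.86, 5.36 and 8.35 CPM in nZFP R1, R3, R4, R6 and R8 and 10.6 to 18.8 CPM with a median of 15.2 in DBD. The groups did not overlap, the log2 fold change was -1.25 (SE 0.17, adjusted p = 2.81e-06), and WT DBD libraries were at 0.17 to 0.675 CPM. Hoxc5 read 0.954, 1.09, 2.22, 0.796 and 1.65 CPM against 1.38 to 4.46 (median 2.95), a log2 fold change of -1.09 (adjusted p = 0.0107) with 2 nZFP libraries inside the DBD range. Hoxd8 (-1.50, adjusted p = 0.00543) and Pou4f1 (-1.18, adjusted p = 0.0063) were at or below 1.28 CPM in every library of both groups, and both lost the call with mouse as a block. Hoxc5 lost it without nZFP R6 (adjusted p = 0.051) or R8 (adjusted p = 0.0519). Nrn1, which encodes the secreted neurite factor neuritin, read 4.74, 5.55, 10.2, 4.49 and 10.1 CPM against 10.1 to 24.8 (median 15), a log2 fold change of -1.11 (SE 0.19, adjusted p = 0.000202), with R4 and R8 at the DBD lower edge. Its WT DBD range was 0.535 to 1.69 CPM and its Estop median in zQ175 was 29.9 CPM, above the DBD median. Pcdh20, a protocadherin outside the clusters, read 22.2, 27.8, 20.2, 25.2 and 21.9 CPM against 25.8 to 39.6 (median 32.8), a log2 fold change of -0.52 (adjusted p = 0.000138) with 1 nZFP library inside the DBD range. It did not pass against Estop (-0.29, adjusted p = 0.0883).

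The difference between genotypes was tested directly, as the repressor's change in zQ175 minus its change in WT. It was called for 11 genes (0.0691%), 10 with a larger value in zQ175 (0.0628% of those tested) and 1, Pcdh20, with a smaller one (-0.57, adjusted p = 0.0292). With mouse as a block 3 were called. Scn4b differed by 0.48 (SE 0.07, adjusted p = 5.09e-05), with a change of 0.19 in WT, where DBD libraries were at 1523 to 1825 CPM. Drd1 differed by 0.34 (SE 0.06, adjusted p = 0.00189) with a WT change of -0.09, and Upb1 by 1.24 (SE 0.19, adjusted p = 0.000608) with a WT change of -0.28. Ddit4l differed by 0.41, its WT libraries being at 30.2 to 34 CPM with DBD and 30.4 to 36.9 CPM with nZFP. Chn1 (0.28), a Rac-regulating chimaerin, Plk2 (0.36), a polo-like kinase induced by synaptic activity, and Myo3b (0.80), a myosin with a kinase domain, also differed (adjusted p = 0.00366 to 0.0167). Shox2 and Nrn1 did not pass (adjusted p = 0.755 and 0.309), with WT DBD medians of 0.27 and 1.06 CPM.

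Levels in zQ175 and WT libraries of the same viruses place these changes side by side. These comparisons share the DBD or nZFP libraries with the repressor's own, so that no overlap is drawn from them. The 30 identity genes had a median genotype difference of -0.69 under DBD, with 27 called lower where 16.0% of all genes tested were, and of -0.48 under the repressor, with 26 called lower where 12.9% were. The 12 developmental factors tested had a median of 4.86 under DBD, with 11 called higher where 15.8% of all genes were. Under the repressor their median was 4.65, with 10 called higher where 11.3% were. An independent genotype difference came from the Estop libraries of mice injected at 6 and collected at 12 months (8 zQ175 and 7 WT), which share no library or mouse with the 13. There, 96 of the 137 higher genes tested in both (70.1%, or 8.55% of that list) were called lower in zQ175 than in WT, where 7.55% of all genes were, and 2 were called higher. Of the 73 lower genes tested in both, 29 were called higher in zQ175 (39.7%, against 7.3% of all genes) and 10 lower (13.7%). All 10 were among the 34 genes lower in both genotypes, whose median genotype difference was -0.12. Of the 41 genes not called in WT, 39 were tested in that comparison, with a median of 0.60 and 24 called higher in zQ175.

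The same contrast in zQ175 mice injected at 2 and collected at 6 months (8 nZFP and 7 DBD libraries) had the same 4 months of treatment. In a fit over 3 paradigms, it called 1133 higher and 1767 lower genes, 7.16% and 11.2% of the genes tested, while the 13 libraries described here gave 34 (0.215%) and 37 (0.234%) in that fit. The difference between the paradigms was called for 44 genes, 23 with a higher value in the later treatment (0.145% of 15819 tested) and 21 with a lower one (0.133%). Leaving out DBD R3 of the early treatment, which stood apart, gave 88. Hrk rose by 1.06 (SE 0.08) with early and 0.39 (SE 0.08) with later treatment, a difference of -0.68 (adjusted p = 0.0021). Ddit4l rose by 1.44 (SE 0.10) and 0.46 (SE 0.11), a difference of -0.97 (adjusted p = 0.00025). Sec14l3 rose by 2.02 (SE 0.16) and 0.76 (SE 0.17), a difference of -1.25 (adjusted p = 0.00664). Rgs14, a regulator of G protein signalling, had a log2 fold change of 0.76 with early and 0.06 with later treatment (adjusted p of the difference 0.000129). Shox2 was at -2.36 and -1.25, a difference of 1.11 (adjusted p = 0.0179), and Wt1, a developmental zinc finger factor, at -1.80 and -0.19, a difference of 1.61 (adjusted p = 0.00507). For Scn4b the values were 1.33 and 0.68, and the difference did not pass (adjusted p = 0.0754).

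Among genes lowered in both genotypes, Nap1l3 was at -1.87 (SE 0.17) with early and -1.97 (SE 0.19) with later treatment, and Impdh1 at -0.95 (SE 0.11) and -1.29 (SE 0.12), and neither difference passed (adjusted p = 0.876 and 0.378). The identity list had a median of 0.53 with early treatment, with 24 of 30 called higher, against 0.24 here. In mice injected at 6 and collected at 12 months, 6 months after injection (8 nZFP and 8 DBD libraries), the median of that list was 0.35, with 16 called higher. That contrast called 527 genes (3.33%), 265 higher (1.68%) and 262 lower (1.66%). No gene differed between 4 and 6 months of treatment in edgeR's quasi-likelihood test, where 681 of 15819 had an unadjusted p under 0.05, and DESeq2 called 1. Of the 138 higher genes, 107 were called higher with early treatment (77.5%, or 9.44% of that list) and 94 after 6 months (68.1%, or 35.6% of that list). Of the 75 lower genes, 49 (65.3%) and 50 (66.7%) were called lower, and none was called in the opposite direction in either.

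**Figure D5:**
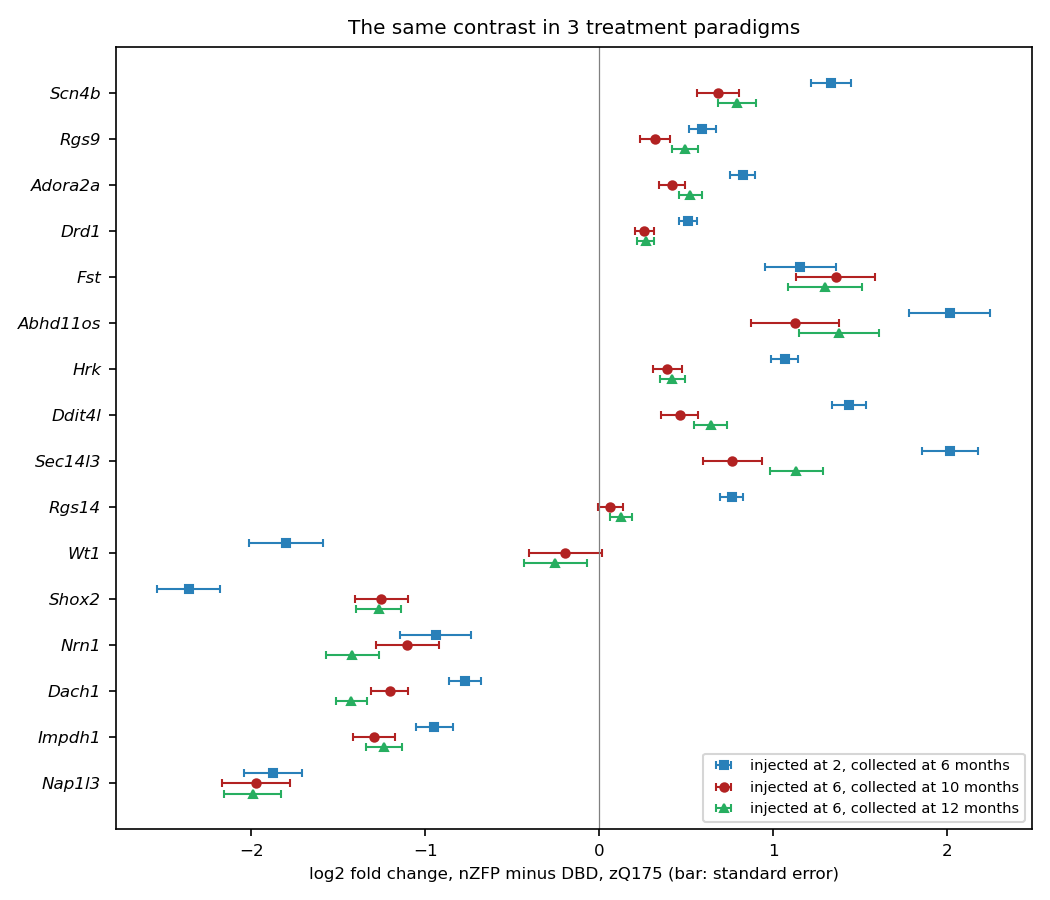
Log2 fold change, nZFP minus DBD in zQ175, with its standard error, of 16 genes in 3 treatment paradigms from 1 fit. Early treatment stands apart from the others for Hrk, Ddit4l, Sec14l3, Rgs14, Wt1 and Shox2, and Nap1l3 lies between -1.87 and -1.99 in all 3.

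Markers of other cells in the tissue were rarely called. Of 64 tested members of 6 lists for astrocytes, microglia, oligodendrocytes and their precursors, resting and reactive, none was called in edgeR's quasi-likelihood test, 4 had an unadjusted p under 0.05, and DESeq2 called 1. Their list medians lay between -0.11 and -0.0048. Summed levels overlapped for astrocytes (3497 to 4071 CPM in nZFP, 3344 to 4267 in DBD), microglia (619 to 698 and 578 to 708) and oligodendrocytes (6406 to 7954 and 6687 to 8720.5). Endothelial and mural markers were low in nZFP R8 alone, with sums of 165 and 122 CPM against at least 264 and 242 CPM in DBD. All 10 oligodendrocyte, 8 endothelial and 8 mural markers had negative log2 fold changes (medians -0.09, -0.13 and -0.22). The 8 ependymal markers were also all negative (median -0.71), with none called by edgeR or DESeq2 and 1 at an unadjusted p under 0.05, and their sums were 7.26 to 9.54 CPM in nZFP, 24.5 CPM in DBD R1 and 7.05 to 9.68 CPM in the other DBD libraries. Interferon and antigen presentation genes had a median of 0.30 with 19 of 20 positive, and immediate early genes a median of 0.32 with 16 of 18 positive; none of these 38 genes was called by edgeR or DESeq2, and 5 and 4 of them had an unadjusted p under 0.05. With mouse as a block, the immediate early median was -0.09. Of 15 lymphocyte markers, 7 were tested, all 7 were positive (median 0.54) and 1 was called. Their sums were 114 to 149 CPM in nZFP R4, R6 and R8, 70.7 and 79.4 CPM in R3 and R1, 119 CPM in DBD R7 and 59.1 to 77.3 CPM in the other 7 DBD libraries. Cd4, the 1 called (0.35, adjusted p = 0.000445), read 50.2 to 61.3 CPM in DBD while Cd3e, Cd3d, Cd3g, Cd8a and Cd8b1 were under 0.1 CPM, and the call was lost with R2 included (0.22, adjusted p = 0.2). The part of these shifts in the results above was not tested.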

How the data were processed

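Striatal poly(A) RNA was sequenced by the authors, who deposited 1 table of expected counts for 233 libraries from 30 groups. The values are RSEM estimates on GRCm38, per the submitters' processing notes; no RSEM version, annotation or strand setting is given in these sources, and genes overlapping on opposite strands are uncertain. These deposited expected counts (90.3% whole) were rounded and tested with edgeR 4.0.16 (R 4.3.3; filterByExpr, TMM scaling, robust quasi-likelihood fit, Benjamini-Hochberg adjustment, threshold 0.05). The fit held 44 libraries in 6 groups with sex as covariate and without the 6 vector entries; zQ175 nZFP R2 and WT DBD R2 were left out as outlying. CPM is the count per 1000000 gene counts on TMM-scaled library sizes. The 13 libraries held 30684924 to 47894359 gene counts. Each library is 1 hemisphere, and 2 mice gave both an nZFP and a DBD library. Deviations from the group means correlated at 0.11 and 0.19 in those pairs. Mouse as a block uses these 2 pairs and, through Estop libraries of the same mice, 3 further nZFP and 4 further DBD libraries. The length index is the median log2 deviation of the longest genes minus that of the shortest, over genes of at least 5 CPM.

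Named genes are Htt, the 12 higher and 12 lower genes of largest change with an adjusted p under 0.05, a mean of at least 1 CPM and a full symbol, up to 4 genes of each of 35 lists by p, and up to 3 per direction in each other comparison. Bcl11b, Foxp1, Adcy5, Pde10a, Brdt and Kcna6 were added after their values were seen. The members and lists were chosen with earlier results of these data known. DESeq2 1.42.0, RLE factors, no filter, other covariates, other controls, blocks and left-out libraries were alternatives. The fit was tested on simulated counts. Repeat runs were read from GENCODE vM21 transcripts and RefSeq promoter windows.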

Additional observations from a re-analysis of the deposited data

Results flagged for a closer look

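Some libraries stood apart from the rest of their group for a named gene, by a gap large against the group's range. Chance gives this in about 1 in 20 groups, and over the many genes named here it alone gives several such cases. Igkv6-15 was at 26.4 CPM in zQ175 nZFP R4 and at 0.530 CPM in DBD R4, against medians of 0.0480 and 0.0246 CPM in the other libraries of each group. Abhd11os was low in DBD R2 (0.961 CPM, median of the others 2.04), and P2ry1 was high in DBD R1 (15.3 CPM, median of the others 11.5). Rian was high in nZFP R3 (451 CPM, median of the others 405), and Stk32c in DBD R3 (239 CPM, median of the others 209). Except for Igkv6-15, the call of each of these genes was kept when that library was left out.

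The repressor's log2 fold change differed between zQ175 and WT for 11 genes in edgeR's quasi-likelihood test of the difference. It was larger in zQ175 for Upb1 (1.24), Myo3b (0.80), Scn4b (0.48), Nrep (0.44), Dglucy (0.43), AI593442 (0.42), Ddit4l (0.41), Plk2 (0.36), Drd1 (0.34) and Chn1 (0.28), and smaller for Pcdh20 (-0.57). AI593442 had 0.15 in zQ175 (adjusted p = 0.39) and -0.26 in WT (adjusted p = 0.00969), so that only its WT value was called.

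For 10 named genes the repressor value differed between treatment from 6 to 10 and from 2 to 6 months by the same kind of test. The later value was higher for Wt1 (1.61), Shox2 (1.11), Sfmbt2 (1.07), Vill (0.79) and Pcdhb20 (0.51), all of which had a negative value with early treatment. It was lower for Sec14l3 (-1.25), Ddit4l (-0.97), Rgs14 (-0.70), Hrk (-0.68) and Rps6ka4 (-0.62), all of which had a positive value with early treatment.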

How the results depend on the processing

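The 213 calls in zQ175 became 262 with zQ175 nZFP R2 kept, of which 144 were shared. They became 144 with WT DBD R2 kept, all shared, and 154 with both kept, of which 125 were shared. Other settings gave 328 with only the zQ175 nZFP and DBD libraries in the fit, 432 with the length index as a covariate and 126 with mouse as a block. In the fit over 3 paradigms, the same 13 libraries gave 71 calls among 15819 genes tested. Leaving out 1 of the 13 libraries gave 155 to 215. The 157 calls in WT became 76 with both outlying libraries, 243 with DESeq2 and 411 with the length index. The 11 differences between genotypes became 52 with DESeq2, 68 with the length index and 3 with mouse as a block. The 44 differences from early treatment became 73 with R2, 88 without the early DBD R3 and 118 with DESeq2, and the 0 differences from 12 months became 1 with DESeq2. The Htt_HD level was 32.2% of DBD and 48.8% of Estop (exact permutation test, p = 0.169), and 28.4% to 40.3% when 1 library was left out. The length index kept all 213 genes and RLE factors 212. Among the genes named in the text, the values that reversed were those of Igkv6-15 without nZFP R4 (-0.18; up to 7.22 without another library), Klf14 (1.48) and Ddn (-0.0061) against Estop, and Pcdhb18 (-0.22 against DBD, not called, and 0.53 against Estop). Over all 213 called genes, 4 had the other sign against Estop, 1 with R2 and 1 without nZFP R4. Of 48 called genes named in the text or by the lists, 18 lost the call with mouse as a block, 13 against Estop, where 2 more reversed, and 10 with R2. The cause was not tested in any of these.

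The replicate numbers do not mark mice. Libraries with the same number correlated at -0.14 to 0.18 over 5 pairs, and with the replicate block 183 genes were called in zQ175, 19 differed between genotypes (11 without it) and 4511 differed between genotypes in the Estop libraries of 12 months (2208 without it).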
